A study of Mus musculus with 13 samples.

Results

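The genes described here are the molecular chaperones of mouse spermatogonia, that is, the heat shock protein (Hsp), DnaJ and cytosolic chaperonin genes. They were taken by symbol, as every symbol that starts with Hsp and a family letter or digit, with Dnaja, Dnajb or Dnajc and a digit, or with Cct and a digit, plus Tcp1. The rule, which used no measured value, found 83 genes among the 20662 listed in both tables. By family they were 45 DnaJ genes, 10 Hsp70, 3 Hsp110, 3 Hsp90, 8 small heat shock protein, 2 mitochondrial chaperonin and 10 CCT genes, with 2 genes, Hspbp1 and Hspbap1, whose products bind heat shock proteins. Hspa8, the constitutive cytosolic Hsp70, was not analysed here.

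The groups were 2 spermatogonial samples from testes of C57BL/6 mice at postnatal week 8, titled KIT_AGSC and THY1_AGSC, with 1 library each. No transgene, mutation or treatment is given for either, and the labels do not say how the cells were sorted or how many animals were used. KIT is the stem cell factor receptor of differentiating spermatogonia, and THY1 is an antigen used to enrich undifferentiated ones. The other 11 samples, of spermatocytes, spermatids and sperm, were not analysed here.

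Chaperones bind unfolded protein and help it to fold. Hsp70 proteins do so in cycles of ATP hydrolysis that DnaJ (J domain) partners start and that Hsp110 proteins and other exchange factors complete, while Hsp90 acts later on partly folded clients. The chaperonins are ring-shaped chambers, Hspd1 with Hspe1 in mitochondria and the CCT complex in the cytosol, where CCT folds actin and tubulin. Male germ cells are known for their own versions of several of these proteins, such as Hspa2 in meiotic and Hspa1l in postmeiotic cells.

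Both antigen transcripts ran against the sample titles. Kit was listed at 0 in the KIT-labelled library and at 36.7 FPKM (fragments scaled by transcript length and library size) in the THY1-labelled library, and Thy1 stood at 78.8 and 0.723 FPKM. The value columns carry the exchanged names too, so every direction below follows the titles and would turn if they were exchanged. In bulk RNA, a different share of cells of a type and a different amount of RNA per cell cannot be told apart. Of 10 spermatogonial markers, 4 were past 2-fold in each direction, and Zbtb16, a marker of undifferentiated cells, was listed at 0 in both libraries. Higher in the KIT-labelled library, beside Thy1, were Nanos3 (118 and 2.74 FPKM), Nanos2 (54.1 and 1.49 FPKM) and Gfra1 (3.91 and 0.102 FPKM). Higher in the THY1-labelled library, beside Kit, were Uchl1 (3.26 and 49.5 FPKM), Stra8 (0.743 and 34.1 FPKM) and Dmrt1 (0 and 4.98 FPKM). Marker lists of other testis cells also differed. The 12 spermatocyte markers summed to 184 FPKM in the KIT-labelled library, with Dmc1, Hormad1 and Tex101 at 0, and to 4607 FPKM in the THY1-labelled library. Of these, 11 were past 2-fold in favour of the THY1-labelled library. The 12 spermatid markers summed to 5014 and 1663 FPKM, with 7 higher in the KIT-labelled library and 5 in the THY1-labelled library. The 8 Leydig markers measured summed to 189 FPKM in the KIT-labelled library, with Hsd17b3 and Hsd3b6 at 0, and to 12931 FPKM in the THY1-labelled library. Of these Leydig markers, 0 were past 2-fold in favour of the KIT-labelled library, 7 in favour of the THY1-labelled library, and 1 lay within 2-fold. The other somatic lists went both ways. Sertoli markers summed to 26.3 and 1285 FPKM, but 3 were past 2-fold in favour of the KIT-labelled library and 4 in favour of the THY1-labelled library. Most of the larger sum was Clu and Vim, at 848 and 375 FPKM. Peritubular markers summed to 197 and 859 FPKM, with 3 past 2-fold in each direction and Sparc at 680 FPKM in the larger sum. Macrophage markers summed to 270.5 and 967 FPKM. Of these, 4 were higher in the KIT-labelled library, C1qa, C1qb and C1qc among them, and 3 in the THY1-labelled library. T lymphocyte markers summed to 51.8 and 14.7 FPKM, with 4 of the 6 that met 1 FPKM higher in the KIT-labelled library. The part of these cells in the results below was not tested.

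The libraries also differed in depth and content. Total counts are unknown, but the worth of a single fragment was estimated roughly, from the low end of the values. It was about 6.31 times larger in the KIT-labelled library, near 1.37 FPKM for a transcript of 2000 bases against 0.217 FPKM. Fragments below are units of this estimate and not counted reads. Rpph1, the RNA of RNase P, took 71.8% of the summed FPKM in the KIT-labelled library and 37.9% in the THY1-labelled library. A value of 0 is given only as listed at 0, since genes that every cell uses are also listed so. With 1 library per group there is no replicate error and no test, and each difference compares 2 libraries.

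The chaperone genes were split between the libraries, with the larger share higher in the THY1-labelled library. Of the 83 genes, 80 had a larger value of at least 1 FPKM. On the log2(FPKM + 1) scale, which understates the change of low genes, 29 of these were at least 2-fold higher in the KIT-labelled library, 43 were at least 2-fold higher in the THY1-labelled library, and 8 lay within 2-fold. Over all 15573 genes that met the same minimum, 39.5% were higher in the KIT-labelled library and 41.1% in the THY1-labelled library, so the chaperones' shares of 36.2% and 53.8% stood below and above the background. The family and list counts below use this minimum and have the same background. Their median difference, labelled KIT minus labelled THY1, was -1.57, against -0.0026 for all genes. The background moved with the minimum, however. Where the larger value had to be worth at least 10 fragments by the depth estimate, an alternative added after seeing the data, 20 of 68 members (29.4%) were higher in the KIT-labelled library and 41 (60.3%) in the THY1-labelled library, beside 30.3% and 52.1% of all 11554 genes that met it. The median differences were then -1.93 for the members and -1.17 for all genes. This minimum is uneven, since a fragment was worth more FPKM in the KIT-labelled library, so it removes genes higher there more readily. At a minimum of 5 FPKM, the same for both libraries, the medians were -1.87 for the members and -0.40 for all genes. At 4-fold, 13 of 80 members were higher in the KIT-labelled library and 33 in the THY1-labelled library, beside 23.8% and 29.4% of all genes.

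**Figure D1:**
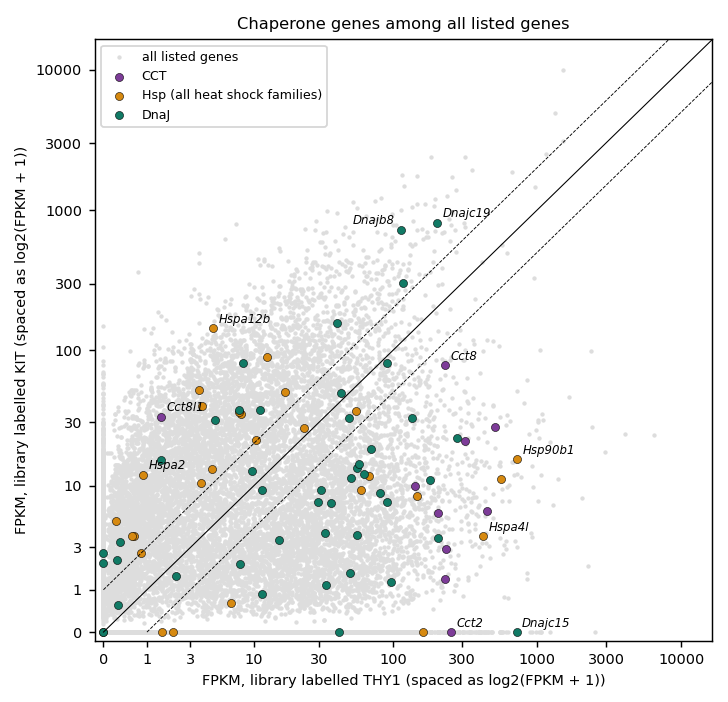
Each point is a gene, with its FPKM in the THY1-labelled library on the x axis and in the KIT-labelled library on the y axis, both spaced as log2(FPKM + 1). The solid line marks equal values and the dashed lines 2-fold, colours mark the chaperone families, and Rpph1 lies outside the axes. Of 10 CCT genes, 9 lie below the lower dashed line, and the DnaJ genes lie on both sides.

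High expression was also uneven. In the KIT-labelled library, 5 chaperone genes reached 100 FPKM: Dnajc19, Dnajb8, Dnajc1, Dnajc14 and Hspa12b. In the THY1-labelled library, 22 did, led by the endoplasmic reticulum Hsp90 gene Hsp90b1, Dnajc15, Hspa5 and Tcp1. Over all listed genes 4.00% and 5.00% reached that level. Across the 80 genes, Spearman's rho between the 2 libraries was 0.069, a description over genes that share both libraries. Of the 83 chaperone genes, 8 were listed at 0 in the KIT-labelled library and 4 in the THY1-labelled library, beside 33.2% and 24.2% of all listed genes. Listed at 0 in the KIT-labelled library alone were 6 genes, Cct2, Dnajc10, Dnajc15, Hspb2, Hspb11 and Hspe1. Dnajc12 and Dnajc22 were listed at 0 in the THY1-labelled library alone. Both libraries listed Hspb1 and Dnajc17 at 0, and with Dnajc6, at 0.553 and 0.265 FPKM, these are the 3 genes under the minimum.

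**Figure D2:**
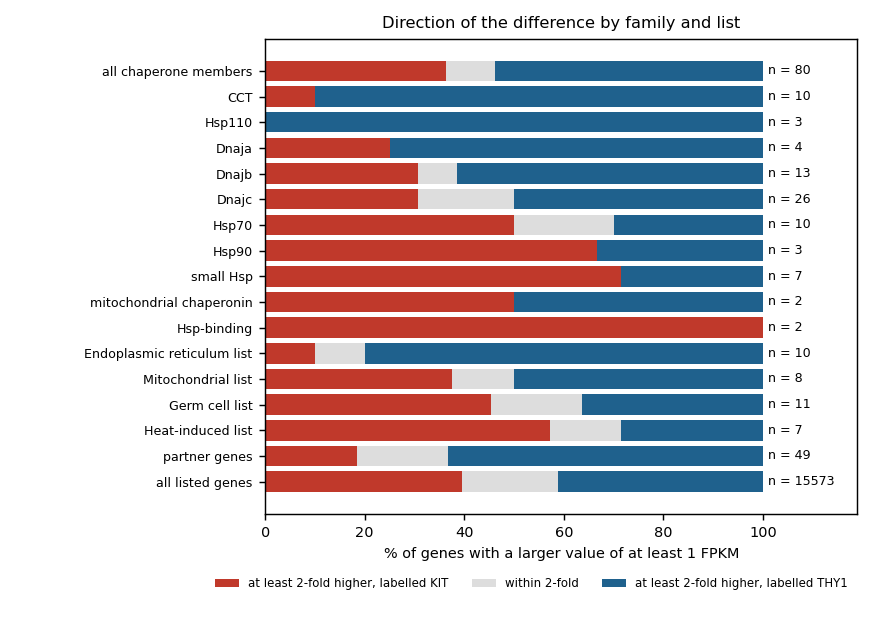
Bars give, for each family or list, the percentage of genes at least 2-fold higher in the KIT-labelled library, within 2-fold, and at least 2-fold higher in the THY1-labelled library, with the number of genes that met the minimum of 1 FPKM at the right. The CCT, Hsp110 and endoplasmic reticulum bars are mostly THY1, the small Hsp bar is mostly KIT, and the bottom bar is the background of all listed genes.

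The promoters of a few members carry the classical elements of the 2 stress pathways, and are shown so that the values of these genes can be read beside them. Sequences are from the RefSeq promoter windows of build GRCm38.p6, which run from 250 bases before to 50 bases after each start, and 69 of the 83 genes have a window. The endoplasmic reticulum stress element was searched on both strands as CCAAT and CCACG with any 9 bases between them. It was found in 39 of all 32851 windows (0.119%) and in 3 of the 88 windows of members. These belong to 3 genes, Hspa5, Hsp90b1 and Dnajc3. The stretch from 220 to 21 bases before the start follows for each, read 5′ to 3′ on the gene's strand, with matches on either strand in capitals; they are at chr2:34771870-34772069 (plus strand), chr10:86705465-86705664 (minus strand) and chr14:118937712-118937911 (plus strand).
Hspa5: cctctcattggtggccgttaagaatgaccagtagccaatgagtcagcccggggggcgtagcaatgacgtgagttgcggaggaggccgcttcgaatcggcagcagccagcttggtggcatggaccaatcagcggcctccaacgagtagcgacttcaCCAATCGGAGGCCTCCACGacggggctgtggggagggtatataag
Hsp90b1: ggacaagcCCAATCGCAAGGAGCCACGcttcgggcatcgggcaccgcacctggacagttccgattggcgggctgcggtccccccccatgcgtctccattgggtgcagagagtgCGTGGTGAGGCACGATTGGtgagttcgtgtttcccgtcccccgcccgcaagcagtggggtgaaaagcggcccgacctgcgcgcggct
Dnajc3: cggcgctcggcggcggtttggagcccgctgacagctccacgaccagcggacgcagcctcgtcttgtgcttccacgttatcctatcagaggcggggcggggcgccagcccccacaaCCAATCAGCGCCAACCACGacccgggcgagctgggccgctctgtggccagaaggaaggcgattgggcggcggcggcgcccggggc

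The heat shock element was searched on both strands as GAA, TTC and GAA with any 2 bases between neighbours. It was found in 198 of all 32851 windows (0.603%) and in 6 of the 88 windows of members. These belong to 4 genes, Dnajb6, Hspd1, Hspe1 and Hsph1. Only this exact pattern was searched, so variants of the element would be missed. The Dnajb6 stretch is at chr5:29735678-29735877 (plus strand). Hspd1 and Hspe1 lie head to head and share the same element, where a match on each strand overlaps the other; 30 bases are shown on the Hspe1 strand, at chr1:55088053-55088082 (plus strand). In Hsph1 the match lies after the start, at chr5:149636288-149636300 (minus strand), and only its bases are shown.
Dnajb6: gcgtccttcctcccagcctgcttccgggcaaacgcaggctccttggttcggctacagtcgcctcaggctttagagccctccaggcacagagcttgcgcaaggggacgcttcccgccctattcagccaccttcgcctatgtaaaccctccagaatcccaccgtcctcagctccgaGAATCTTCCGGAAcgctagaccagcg
Hspe1: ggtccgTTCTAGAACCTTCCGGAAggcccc
Hsph1: TTCTGGAAAGTTC

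In the cytosolic chaperonin family, 9 of 10 genes were higher in the THY1-labelled library. CCT is built from 8 related subunits in each ring, encoded by Tcp1 and Cct2 to Cct8 with Cct6a as the general form of the sixth, and all 8 were at least 2-fold higher in the THY1-labelled library. Tcp1 stood at 27.6 FPKM in the KIT-labelled library and at 509 FPKM in the THY1-labelled library, and Cct5 at 6.31 and 453 FPKM. Cct6a was at 21.8 and 316 FPKM, and Cct3 at 2.89 and 235 FPKM. Cct7 was at 6.00 and 207 FPKM, and Cct4 at 9.85 and 141 FPKM. Cct2 was listed at 0 in the KIT-labelled library and at 252 FPKM in the THY1-labelled library. The smallest gap was that of Cct8, at 77.9 and 231 FPKM.

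Within the THY1-labelled library the 8 ring subunits lay between 141 and 509 FPKM, a span of 3.60 times. In the KIT-labelled library the 7 subunits above 0 spanned 26.9 times, from 2.89 to 77.9 FPKM. The lowest, Cct3, was worth about 2.08 fragments there by the depth estimate, so this span is uncertain. The median difference of the 8 ring subunits was -4.52, the same as that of the whole CCT family. The testis paralogues went apart. Cct6b, the testis form of the sixth subunit, stood at 1.399 FPKM in the KIT-labelled library and at 229 FPKM in the THY1-labelled library, a ratio of 164. The smaller value was worth about 0.91 fragments by the depth estimate, so the size of this ratio is uncertain. Cct8l1, a copy of Cct8 with a single exon, was the only CCT gene higher in the KIT-labelled library, at 33.1 FPKM against 1.52 FPKM in the THY1-labelled library.

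The endoplasmic reticulum chaperones ran mostly the same way. Of 10 genes on that list, 1 was higher in the KIT-labelled library, 8 were higher in the THY1-labelled library and 1 lay within 2-fold, with a median difference of -3.26. Hsp90b1, the Hsp90 of this compartment (also called Grp94), stood at 16.0 FPKM in the KIT-labelled library and at 727 FPKM in the THY1-labelled library. Hspa5, its Hsp70 (BiP), was at 11.3 and 563 FPKM. These 2 genes thus differed by 45.4 and 49.97 times, and both promoters hold the stress element printed above. Dnajc3, an inhibitor of stress kinases and the third gene with the element, was at 32.1 and 48.9 FPKM, within 2-fold.

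In the THY1-labelled library the other genes of the list had lower values than Hsp90b1 and Hspa5. Dnajb9, which is induced by stress, was at 1.63 FPKM in the KIT-labelled library and 49.4 FPKM in the THY1-labelled library, and Dnajb11, which binds nascent chains, at 7.46 and 29.3 FPKM. Dnajc10, a disulphide reductase, was listed at 0 and at 41.7 FPKM. The membrane-anchored Dnajb14 and Dnajb12 were at 3.66 and 204.5 FPKM and at 9.20 and 31.2 FPKM. Hspa13, an Hsp70-like protein of microsomes, was at 0.615 and 6.69 FPKM. The only gene of the list higher in the KIT-labelled library was that of the ribosome-contacting membrane protein Dnajc1. Dnajc1 stood at 301 FPKM there against 118 FPKM in the THY1-labelled library. Its difference of 1.35 on the log2 scale became 0.79, under 2-fold, with the libraries scaled to a median ratio of 1, when 0 genes of the list were higher in the KIT-labelled library.

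**Figure D3:**
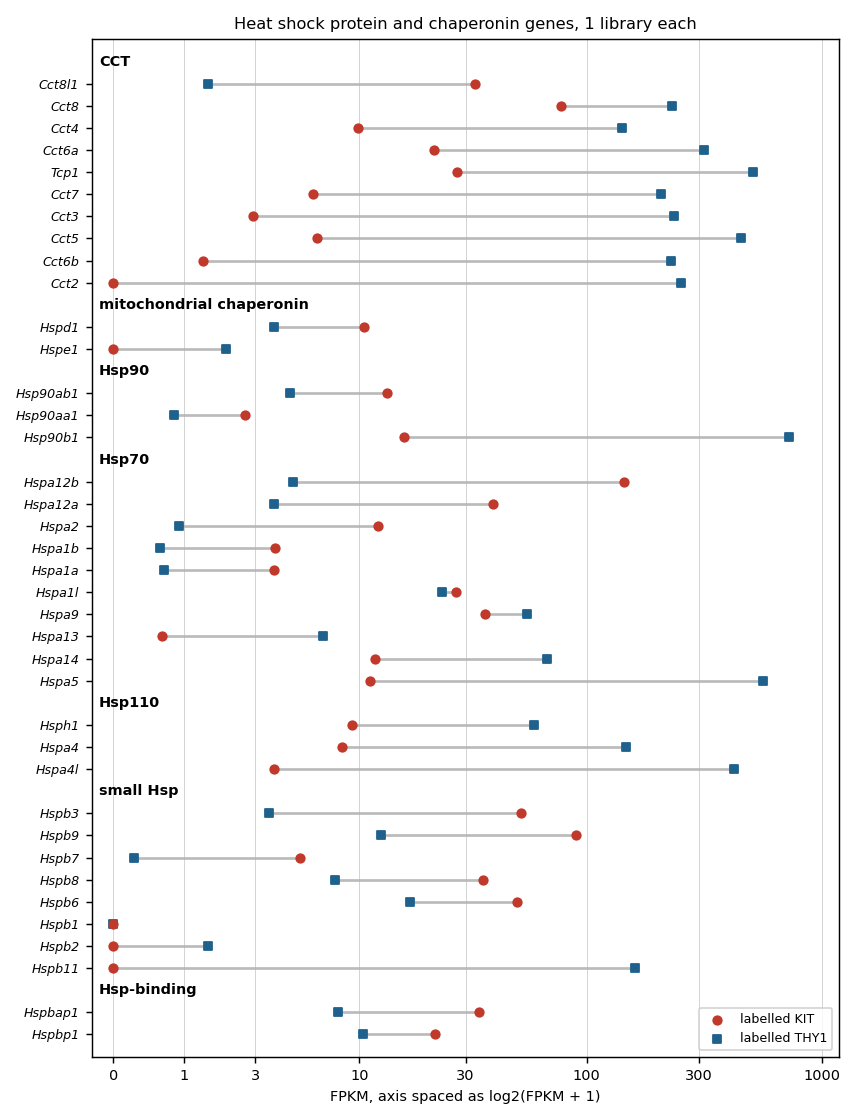
Each row is a heat shock protein or chaperonin gene, with its FPKM in the KIT-labelled library (circle) and in the THY1-labelled library (square) on an axis spaced as log2(FPKM + 1), by family and in order of the difference. The 8 ring subunits of CCT have their square at the right, while Hspb3, Hspb6, Hspb7, Hspb8 and Hspb9 have their circle at the right.

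Mitochondrial chaperones did not share a direction. Of 8 genes, 3 were higher in the KIT-labelled library, 4 were higher in the THY1-labelled library and 1 lay within 2-fold, with a median difference of -1.09 that turned to 0.34 when the 2 genes listed at 0 were left out. The sharpest contrast was between the paralogues Dnajc19 and Dnajc15, both J proteins of the inner membrane import motor. Dnajc19 stood at 813 FPKM in the KIT-labelled library, its highest chaperone value, against 204 FPKM in the THY1-labelled library. Dnajc15 was listed at 0 in the KIT-labelled library and at 724 FPKM in the THY1-labelled library. Hspa9, the matrix Hsp70 (mortalin), was at 36.3 and 55.3 FPKM and within 2-fold.

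Dnaja3, the matrix partner of Hspa9, stood at 3.88 FPKM in the KIT-labelled library and 55.5 FPKM in the THY1-labelled library, and Dnajc11, of the inner membrane contact sites, at 11.4 and 50.8 FPKM. Dnajc30 was at 3.36 and 0.299 FPKM. The chaperonin Hspd1 was at 10.5 and 3.77 FPKM. Its lid Hspe1, which shares its promoter, was listed at 0 in the KIT-labelled library and at 2.01 FPKM in the THY1-labelled library. For Dnajc30, Hspd1 and Hspe1 the larger of the 2 values was worth under 10 fragments by the depth estimate.

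Both cytosolic Hsp90 genes were past 2-fold in favour of the KIT-labelled library, and the heat-induced genes went both ways. Scaled to a median ratio of 1, Hsp90aa1, Hsp90ab1 and the heat-induced Hspd1 lay within 2-fold, at 0.62, 0.85 and 0.77 on the log2 scale. Hsp90aa1, the inducible form, was at 2.63 FPKM in the KIT-labelled library and 0.807 FPKM in the THY1-labelled library. Hsp90ab1, the constitutive form, was at 13.4 and 4.60 FPKM. The inducible Hsp70 genes Hspa1a and Hspa1b were at 3.79 and 0.636 FPKM and at 3.85 and 0.569 FPKM. For Hsp90aa1, Hspa1a and Hspa1b the larger value was worth only about 3.14, 4.10 and 3.93 fragments by the depth estimate. Dnajb1, their main J partner in the heat response, was at 1.51 and 2.15 FPKM, and the small heat shock gene Hspb1 was listed at 0 in both libraries. Hsph1, an Hsp110, was at 9.21 FPKM in the KIT-labelled library and 59.5 FPKM in the THY1-labelled library.

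In all, of 8 heat-induced genes analysed, 4 were higher in the KIT-labelled library, 2 were higher in the THY1-labelled library, 1 lay within 2-fold and 1 was under the minimum, with a median difference of 1.004 that turned to -0.65 with a minimum of 5 FPKM, which left 2 genes. Several of these genes have near-identical copies in the genome, including processed pseudogenes, so their values are uncertain. Measured as the share of 36-base words of the transcript that another annotated gene also holds, 6 members shared at least 40%: Hspa1b (66.4%), Hspa1a (64.2%), Hsp90aa1 (61.6%), Hspb1 (60.9%), Hspd1 (52.2%) and Hspe1 (44.2%). In the KIT-labelled library these 6 were at 10.5 FPKM or less, and in the THY1-labelled library at 3.77 FPKM or less. For comparison, 61 members shared under 5%, and the 60 of these that met the minimum had medians of 11.8 FPKM in the KIT-labelled library and 41.0 FPKM in the THY1-labelled library. Whether the copies lowered the values was not tested.

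The remaining Hsp70 genes diverged. The atypical Hsp70 genes Hspa12b, known from endothelium, and Hspa12a stood at 144 and 39.5 FPKM in the KIT-labelled library, against 4.76 and 3.81 FPKM in the THY1-labelled library. Hspa14, which works at the ribosome, was at 11.8 FPKM in the KIT-labelled library and 67.5 FPKM in the THY1-labelled library. Over the Hsp70 family, 5 of 10 genes were higher in the KIT-labelled library and 3 in the THY1-labelled library. All 3 Hsp110 exchange factors were higher in the THY1-labelled library. Besides Hsph1, Hspa4 was at 8.34 and 147 FPKM, and Hspa4l, which male mice need for full fertility, at 3.80 and 425 FPKM, a ratio of 112.

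Small heat shock proteins hold unfolded clients without ATP, and many of the family are known from muscle. Of the 7 that met the minimum, 5 were higher in the KIT-labelled library and 2 in the THY1-labelled library, with a median difference of 2.08. By coding exons, 2 of the 2 with 1 exon and 3 of the 5 with more were higher in the KIT-labelled library, beside 84.1% of all genes with 1 coding exon, 55.9% with 2 to 4 and 35.96% with 5 to 9. Hspb9, the testis member, was at 90.0 FPKM in the KIT-labelled library and 12.6 FPKM in the THY1-labelled library. The muscle genes Hspb3, Hspb6 and Hspb7 were at 52.0, 49.98 and 5.19 FPKM in the KIT-labelled library, against 3.55, 17.1 and 0.226 FPKM in the THY1-labelled library. The larger value of Hspb7 was worth about 5.24 fragments by the depth estimate. Hspb8, which works with Bag3, was at 35.8 and 7.69 FPKM.

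In the other direction, Hspb11 was listed at 0 in the KIT-labelled library and at 161 FPKM in the THY1-labelled library. Its product, also called Ift25, is a subunit of intraflagellar transport and not a typical small heat shock protein. Hspb2 was listed at 0 and at 1.53 FPKM, the latter worth about 2.71 fragments. Both Hsp-binding genes were higher in the KIT-labelled library. Hspbp1, an exchange factor, was at 22.1 and 10.4 FPKM, just past 2-fold at 1.03 on the log2 scale, and Hspbap1, whose product binds Hspb1, at 34.3 and 7.95 FPKM. The value of Hsp90aa1, 1.004, was the other one this close to the threshold. Hspb6 and Hspbp1 lay within 2-fold, at 0.94 and 0.49 on the log2 scale, with the libraries scaled to a median ratio of 1.

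Of the DnaJ genes, 43 met the minimum. Among them 13 were higher in the KIT-labelled library (30.2%), 24 were higher in the THY1-labelled library (55.8%) and 6 lay within 2-fold, with a median difference of -1.82. The shares of all genes were 39.5% and 41.1% at the same minimum. They were 30.3% and 52.1% at the minimum of 10 fragments, which is uneven between the libraries. DnaJ genes were not counted apart at that minimum, so their shares cannot be compared with these. In the Dnaja class, with the fullest set of domains, the cytosolic Dnaja2 was at 7.43 FPKM in the KIT-labelled library and 90.8 FPKM in the THY1-labelled library, and Dnaja4 at 32.3 and 135 FPKM. Dnaja1 ran the other way, at 36.7 FPKM in the KIT-labelled library against 11.1 FPKM in the THY1-labelled library, and shared 20.1% of its words with other genes.

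**Figure D4:**
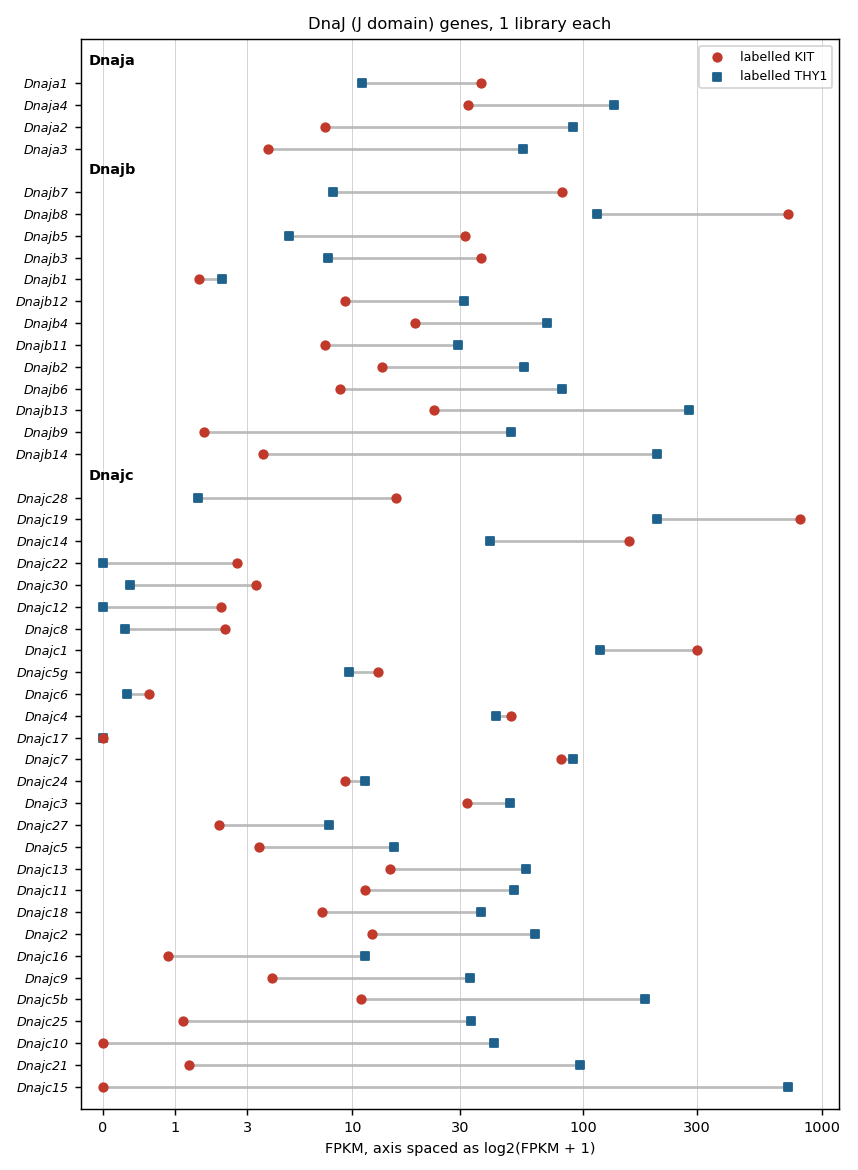
Each row is a DnaJ gene, with its FPKM in the KIT-labelled library (circle) and in the THY1-labelled library (square) on an axis spaced as log2(FPKM + 1), by class and in order of the difference. Dnajb8 and Dnajc19 have the highest circles, at 725 and 813 FPKM, and Dnajc15 has the highest square, at 724 FPKM.

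In the Dnajb class 4 of 13 genes were higher in the KIT-labelled library (30.8%) and 8 in the THY1-labelled library (61.5%). Dnajb8, known from testis as a suppressor of protein aggregation, stood at 725 FPKM in the KIT-labelled library and 114 FPKM in the THY1-labelled library. Dnajb7 was at 81.5 and 8.17 FPKM, Dnajb3, which is known from spermatids, at 37.0 and 7.69 FPKM, and Dnajb5 at 31.4 and 4.96 FPKM. The library labelled THY1 had more of Dnajb13, a radial spoke protein of the sperm tail, with 23.1 FPKM in the KIT-labelled library and 279 FPKM in the THY1-labelled library. It also had more of Dnajb6, the anti-aggregation gene with a heat shock element, with 8.80 and 81.6 FPKM. Dnajb4 and Dnajb2 were at 19.2 and 70.1 FPKM and at 13.6 and 56.3 FPKM.

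The Dnajc class, whose members share little but the J domain, held 8 genes higher in the KIT-labelled library, 13 higher in the THY1-labelled library and 5 within 2-fold. Beside Dnajc19 and Dnajc1, the KIT-labelled library had more of Dnajc14, an export factor of receptors, with 155 FPKM against 40.4 FPKM in the THY1-labelled library. Dnajc28 was at 15.7 and 1.49 FPKM. Dnajc8, which is related to splicing, and Dnajc12 and Dnajc22 were also counted there, but at 2.24, 2.12 and 2.62 FPKM, near the worth of 1 or a few fragments in that library. In the THY1-labelled library they were at 0.243 FPKM, 0 and 0.

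The Dnajc genes higher in the THY1-labelled library had varied roles. The ribosome biogenesis factor Dnajc21 stood at 1.28 FPKM in the KIT-labelled library and 96.8 FPKM in the THY1-labelled library, and the ribosome-associated Dnajc2 at 12.3 and 62.5 FPKM. Dnajc9, a histone co-chaperone, was at 4.07 and 33.0 FPKM, and the endosomal Dnajc13 at 14.8 and 57.4 FPKM. Dnajc25, Dnajc18 and Dnajc16 were at 1.17, 7.22 and 0.869 FPKM in the KIT-labelled library, against 33.4, 36.7 and 11.4 FPKM in the THY1-labelled library. Dnajc27 was at 2.05 and 7.77 FPKM. Of the cysteine string proteins, which guard secretory vesicles, the general form Dnajc5 was at 3.50 and 15.3 FPKM. Its testis paralogue Dnajc5b was at 11.0 and 181 FPKM, and the other, Dnajc5g, at 13.1 and 9.66 FPKM.

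Within 2-fold were 6 DnaJ genes, among them Dnajb1, Dnajc3 and Dnajc5g, whose values are given with their lists. The Hsp90 and Hsp70 adaptor Dnajc7 was at 80.5 FPKM in the KIT-labelled library and 90.8 FPKM in the THY1-labelled library, and Dnajc4 at 49.4 and 42.7 FPKM. Dnajc24, needed for the diphthamide modification of elongation factor, was at 9.27 and 11.5 FPKM.

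The germ cell chaperones went both ways. Of 11 genes on that list, 5 were higher in the KIT-labelled library (45.5%), 4 in the THY1-labelled library (36.4%) and 2 lay within 2-fold. These shares were near the 39.5% and 41.1% of all genes. Hspa2, the Hsp70 of spermatocytes that male meiosis requires, stood at 12.2 FPKM in the KIT-labelled library and 0.891 FPKM in the THY1-labelled library, opposite to the spermatocyte markers above. Hspa1l, the spermatid Hsp70, was at 27.3 and 23.6 FPKM. The 5 genes higher in the KIT-labelled library, Hspa2, Hspb9, Dnajb3, Dnajb7 and Dnajb8, have their coding sequence in 1 exon. The 4 higher in the THY1-labelled library, Hspa4l, Cct6b, Dnajb13 and Dnajc5b, have it in 19, 14, 8 and 4 exons.

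The same division by coding exons ran through the chaperones as a whole and was looked for after the values had been seen. The number of coding exons was counted in the GENCODE M21 transcript with the longest coding sequence, for 82 of the 83 genes. Of 11 members with 1 coding exon, 10 were higher in the KIT-labelled library and 0 in the THY1-labelled library, with Hspa1l within 2-fold, and the median difference was 2.65. Besides those named, these were Hspa1a, Hspa1b, Hspb3, Dnajc30 and Cct8l1. Of 30 members with 10 or more coding exons that met the minimum, 6 were higher in the KIT-labelled library and 21 in the THY1-labelled library, with a median difference of -2.49. The 6 were Dnajc1, Hspa12a, Hspa12b, Hsp90aa1, Hsp90ab1 and Hspd1. With the libraries scaled to a median ratio of 1 the count of 6 became 2, Hspa12a and Hspa12b, and among genes with under 5% of words shared it became 3.

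All listed genes showed the same gradient, so it is not particular to chaperones. Of 1241 genes with 1 coding exon, 84.1% were higher in the KIT-labelled library and 6.93% in the THY1-labelled library, with medians of 9.64 and 1.12 FPKM. Of 6402 genes with 10 or more coding exons, 23.6% were higher in the KIT-labelled library and 55.6% in the THY1-labelled library, with medians of 4.09 and 15.9 FPKM. Spearman's rho between the difference and the number of coding exons was -0.54 across 79 chaperone genes and -0.39 across 14879 genes, given as descriptions. Within the class of 10 or more coding exons, the 8 CCT genes had a median difference of -5.41 and the 22 heat shock and DnaJ genes one of -1.98, against -1.41 for all genes of the class. What underlies the gradient was not tested.

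**Figure D5:**
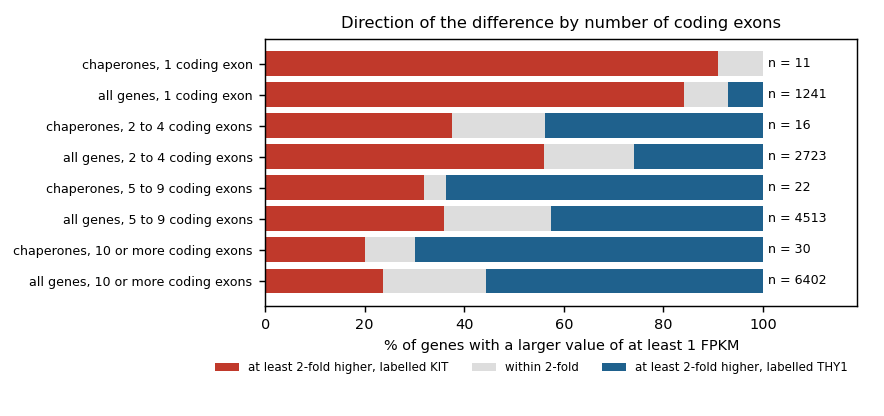
Bars give the percentage of genes at least 2-fold higher in the KIT-labelled library, within 2-fold, and at least 2-fold higher in the THY1-labelled library, by number of coding exons, for the chaperones and for all listed genes, with the number of genes that met the minimum of 1 FPKM at the right. The KIT share shrinks with exon number in both sets, and 90.9% of the chaperones with 1 coding exon are higher in the KIT-labelled library.

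Of 49 genes that work with the chaperones and met the minimum, 9 were higher in the KIT-labelled library (18.4%) and 31 in the THY1-labelled library (63.3%), beside 39.5% and 41.1% of all genes. Their median difference was -1.82, which moved to -2.95 with a minimum of 5 FPKM and to -1.40 over those above 0 in both. The lectin chaperone Calr of the endoplasmic reticulum stood at 3.43 FPKM in the KIT-labelled library and 342 FPKM in the THY1-labelled library, the Hsp90 activator Ahsa1 at a listed 0 and 269 FPKM, and the mitochondrial Hsp90 gene Trap1 at a listed 0 and 75.6 FPKM. In favour of the KIT-labelled library, the translocon subunit Sec61b was at 23.8 FPKM against 1.09 FPKM in the THY1-labelled library. The Hsp90 co-chaperone Ptges3 was at 23.2 and 2.54 FPKM, and Grpel1, the exchange factor of Hspa9, at 162 and 34.8 FPKM. The partner list holds 4 heat shock transcription factors, which were named after their values were seen. Hsf1 and Hsf2 were within 2-fold, at 58.6 and 39.9 FPKM and at 19.1 and 33.4 FPKM. Hsf4 was at 4.97 FPKM in the KIT-labelled library and 0.243 FPKM in the THY1-labelled library, and Hsf5 at 0.733 and 38.7 FPKM.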

How the data were processed

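RNA was measured in 2 spermatogonial libraries. The libraries were directional and made from total RNA after depletion of ribosomal RNA, per the labels' protocols. The deposited values carry no unit in the file headers and were taken as FPKM, since the submitters' processing notes name Cufflinks 2.1.1, with TopHat 1.4.1, CASAVA and build mm9, without roles. For the annotation and the handling of reads with several alignments, no source used here gives details. Tables were tied to samples through the series record, and samples to groups through their titles.

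Differences were taken over the whole table as log2(FPKM + 1), labelled KIT minus labelled THY1, for genes reaching 1 FPKM in either library, and counted at 2-fold. With 1 library per group no test was made. For depth, the products of FPKM and transcript length were taken over single-transcript genes longer than 1000 bases, and their percentile 5 was used. Coding exons, lengths and shared 36-base words came from GENCODE M21, on another build, so no coordinates were taken from it, and 20300 symbols (98.2%) matched. The comparison was tested on simulated data.

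The members and lists were chosen with earlier results of these data known, and the exon classes, word sharing and depth minimum after seeing the values. The naming rule took every member outside Dnajb and Dnajc, those of these 2 classes on a list, with the 8 largest differences in each direction or the 4 highest means, and the 3 partners with the largest difference in each direction and at least 5 FPKM. The remaining Dnajb and Dnajc genes were named after their values were seen. Python 3.11.15, numpy 2.4.6, pandas 2.3.3, scipy 1.17.1 and matplotlib 3.10.9 were used.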

Additional observations from a re-analysis of the deposited data

How the results depend on the processing

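Counted at 4-fold, 13 chaperone genes were higher in the KIT-labelled library and 33 in the THY1-labelled library, beside 23.8% and 29.4% of all genes. Under the other alternatives (a pseudocount of 0.1, no minimum or one of 5 FPKM, 3 scalings, genes above 0 in both libraries, and, added after seeing the data, a larger value worth at least 10 fragments) the counts were within 1.5 times of 29 and 43, and the median difference stayed between -2.00 and -1.37. Scaling to a median ratio of 1, to the upper quartile and to the sum without Rpph1 moved the median of all genes to -0.57, 0.26 and 0.22, and turned the sign of 0 of the 72 members past 2-fold, of which 6, 0 and 0 no longer passed it. The 6 under the median ratio were Dnajc1, Hsp90aa1, Hsp90ab1, Hspb6, Hspbp1 and Hspd1. With a minimum of 5 FPKM, the median turned to -2.03 for Hsp90 (2 genes) and to -0.65 for the heat-induced list (2 genes). Over genes above 0 in both libraries, that of the mitochondrial list turned to 0.34 (6 genes). These 3 medians rest on few genes and depend on which were left out. Hsp90aa1, higher in the KIT-labelled library, left the Hsp90 family. Hsp90aa1, Hspa1a, Hspa1b, Dnajb1 and Hspe1 left the heat-induced list. Dnajc15 and Hspe1, both higher in the THY1-labelled library, left the mitochondrial list. No paired analysis was possible because each spermatogonial group had 1 library, and none could be left out. Of 12 members whose larger value was worth under 10 fragments, 9 were higher in the KIT-labelled library and 2 in the THY1-labelled library. That minimum is uneven, since a fragment was worth about 6.31 times more FPKM in the KIT-labelled library. Genes at large under that depth also leaned to the KIT-labelled library, in part by the construction of the minimum. Leaving them out took the share of all genes higher there from 39.5% to 30.3%, and the share higher in the THY1-labelled library from 41.1% to 52.1%.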
